A study of Mus musculus with 2 samples.

Results

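The genes of the tumour necrosis factor (TNF) and TNF receptor superfamily were taken from the count table by their symbols. The rule took every symbol that starts with Tnfsf or Tnfrsf and a digit, together with Tnf, Lta, Ltb, Ltbr, Cd40, Cd40lg, Cd27, Cd70, Fas, Fasl, Eda2r and Ngfr, and asked for at least 20 counts over both libraries. It matched 44 of 35602 symbols, and 42 had enough counts: 16 ligand genes, 25 receptor genes and the noncoding antisense RNA Tnfsf13os. The 2 symbols left out were Cd70, the ligand of CD27, with 5 counts in the acupuncture library and 4 with the PD-1 inhibitor alone, and Tnfrsf17, the BCMA receptor of plasma cells, with 6 counts with acupuncture and 7 without. The member nearest above the minimum was Cd40lg, with 46 counts over both libraries.

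Breast tumour tissue of mice was sequenced as messenger RNA in 2 libraries, 1 per group. The first group received an intraperitoneal PD-1 inhibitor and acupuncture, and the second received the intraperitoneal PD-1 inhibitor without acupuncture, so that both groups carry PD-1 blockade and no untreated tumour is among them. Values given as "without" acupuncture are those of the PD-1 inhibitor alone. PD-1 is an inhibitory receptor of activated T cells. The strain, age and sex of the mice, the tumour model, the agent and its dose, the acupuncture points and the number of animals per library are not stated in the labels. With 1 library per group there is no replicate check, and every interval below is a 95% counting interval that leaves out variation between animals.

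Ligands of this superfamily are mostly trimers on the surface of lymphocytes and myeloid cells, and several are shed by proteases. Their receptors fall into groups by the inside of the cell: death receptors carry a death domain that can lead to caspase 8, whereas the co-stimulatory and lymphoid receptors bind TRAF adaptors and turn on NF-kB. In tumours the family is known for T cell co-stimulation (CD27, OX40, GITR, 4-1BB), for B cell survival (the BAFF and CD40 systems), for building lymphoid tissue (lymphotoxins) and for cell killing (FAS and TRAIL).

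Depth was 60752043 counts in the acupuncture library and 105728292 with the PD-1 inhibitor alone, and scaled CPM are counts per 1000000 of library sizes adjusted by edgeR's TMM method. A gene is called higher or lower here when it differed at least 2-fold and its counting interval left out 1. By that rule 9.21% of the 18687 genes with at least 20 counts were higher in the acupuncture library and 4.9% were lower, 14.1% in either direction. Of the called genes, 65.3% were higher, a share that was 91.5% when libraries were scaled to the mammary epithelial markers. Of the mammary epithelial markers, Krt8, Krt18 and Epcam were abundant in both libraries, while Krt5 was low, at 10 counts with acupuncture and 104 without. All 10 of these markers summed to 2922 CPM with acupuncture and 4197 CPM without. The milk-lineage factor Elf5 was at 0 counts with acupuncture and 53 without. Markers of several other tissues were higher in the acupuncture library. All 8 T cell markers (127 CPM summed with acupuncture, 24.1 CPM without) and all 8 B cell markers (118 CPM with, 3.57 CPM without) were called higher. So were all 6 markers of lymphoid stroma and high endothelial venules (181 CPM with, 1.59 CPM without, Chst4 at 0 counts without), all 6 of adipocytes (1061 CPM with, 232 CPM without) and all 7 of skeletal muscle (1740 CPM with, 155 CPM without). Of 6 neutrophil markers 5 were called lower (19.8 CPM with acupuncture, 207 CPM without). In bulk tissue, more or fewer cells of a type and more or less RNA per cell cannot be told apart.

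The promoters of 5 genes, chosen with their values known, are shown: Tnfrsf13c and Cd27 as the receptor genes with the highest folds, Tnfrsf9 as the receptor gene called lower, and Lta and Ltb as neighbouring lymphotoxin genes, of which Lta was called higher and Ltb, at 1.91-fold, was not called. Each run is the 250 bases upstream of a RefSeq start on GRCm38.p6, 5′ to 3′ on the strand of the gene. The windows are chr15:82224381-82224630 (minus strand) for Tnfrsf13c, chr6:125237028-125237277 (minus) for Cd27, chr4:150927749-150927998 (plus) for Tnfrsf9, chr17:35194257-35194506 (plus) for Ltb and chr17:35205352-35205601 (minus) for Lta. Capitals mark matches, on either strand, to the NF-kB pattern GGGNNNTTCC and to the interferon-response core GAAANNGAAA.
Tnfrsf13c: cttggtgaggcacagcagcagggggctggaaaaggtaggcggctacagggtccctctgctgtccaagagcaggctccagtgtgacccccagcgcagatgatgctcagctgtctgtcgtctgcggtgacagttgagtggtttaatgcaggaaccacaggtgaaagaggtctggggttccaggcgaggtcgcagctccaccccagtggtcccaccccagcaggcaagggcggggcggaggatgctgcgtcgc
Cd27: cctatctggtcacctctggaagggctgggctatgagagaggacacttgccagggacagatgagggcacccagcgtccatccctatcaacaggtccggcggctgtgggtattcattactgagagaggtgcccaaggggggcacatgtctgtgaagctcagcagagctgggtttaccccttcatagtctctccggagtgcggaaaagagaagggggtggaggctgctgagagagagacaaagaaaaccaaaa
Tnfrsf9: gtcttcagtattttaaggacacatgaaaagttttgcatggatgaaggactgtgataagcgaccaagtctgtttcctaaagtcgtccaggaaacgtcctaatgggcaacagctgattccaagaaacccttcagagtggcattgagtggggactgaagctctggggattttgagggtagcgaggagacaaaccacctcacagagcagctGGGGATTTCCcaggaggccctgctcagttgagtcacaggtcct
Ltb: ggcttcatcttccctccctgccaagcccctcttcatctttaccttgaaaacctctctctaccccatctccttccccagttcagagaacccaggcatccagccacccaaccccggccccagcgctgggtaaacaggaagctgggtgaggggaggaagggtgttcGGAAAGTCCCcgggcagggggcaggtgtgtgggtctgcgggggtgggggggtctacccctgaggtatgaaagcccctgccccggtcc
Lta: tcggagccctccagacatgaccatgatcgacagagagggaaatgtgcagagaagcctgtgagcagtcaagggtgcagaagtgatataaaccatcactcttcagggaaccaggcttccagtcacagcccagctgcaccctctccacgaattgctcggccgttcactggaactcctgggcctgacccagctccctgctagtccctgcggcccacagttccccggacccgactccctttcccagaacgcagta
In these windows Ltb held an NF-kB match at bases -87 to -78 from its start. The Tnfrsf9 window, which belongs to the downstream of its 2 annotated starts, held an NF-kB match at -43 to -34. The window of the upstream Tnfrsf9 start, which is not printed, held no match to either pattern. Lta, Tnfrsf13c and Cd27 held no match to either pattern, and no printed window held the interferon-response core. Of the 2 genes with a match in a printed window, Ltb was 1.91-fold higher and not called, and Tnfrsf9 was 2.69-fold lower. Whether a match goes with the direction of a gene was not tested.

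Windows of the same kind were found for 32 of the 42 members, 36 windows in all, among 32851 windows of the whole table. The NF-kB pattern was in 4 of the 36 (11.1%), against 4.65% of all windows, and the genes were Eda2r, Ltb, Tnfrsf25 and Tnfrsf9. The interferon-response core was in 3 of the 36 (8.33%), against 2.98% of all windows. The core was found upstream of Tnfrsf14, Tnfrsf1b and Tnfsf13b. These are matches of letters, not sites shown to be bound.

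Over all members, 9 of 42 (21.4%) were at least 2-fold higher with acupuncture and 1 (2.38%) was lower by that limit, against 9.21% higher and 4.9% lower of all genes tested, and the other 32 were not called. The median log2 ratio of the 42 was 0.25, against 0.0003 for all genes tested, and 26 of them lay above 0. Of 16 ligand genes 5 were called higher, and of 25 receptor genes 4 were, a difference that was not tested. Summed over genes, ligands came to 91.4 CPM with acupuncture and 64.4 CPM without, while receptors came to 727 CPM with acupuncture and 822 CPM without. Directions near 1 depended on scaling: under total counts Tnfsf12, Tnfrsf11a, Tnfrsf1a and Tnfrsf8 lay above 1 in place of below it, and under scaling to the epithelial markers so did these and Tnfrsf1b, Ltbr, Tnfrsf22, Tnfrsf26, Tnfsf18 and Tnfsf13os. Nearest to the 2-fold limit among the called members was Tnfsf8 at 2.14-fold, and nearest to it among those not called were Ltb at 1.91-fold and Fasl at 1.88-fold higher and Tnfsf14 at 1.94-fold lower.

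**Figure D1:**
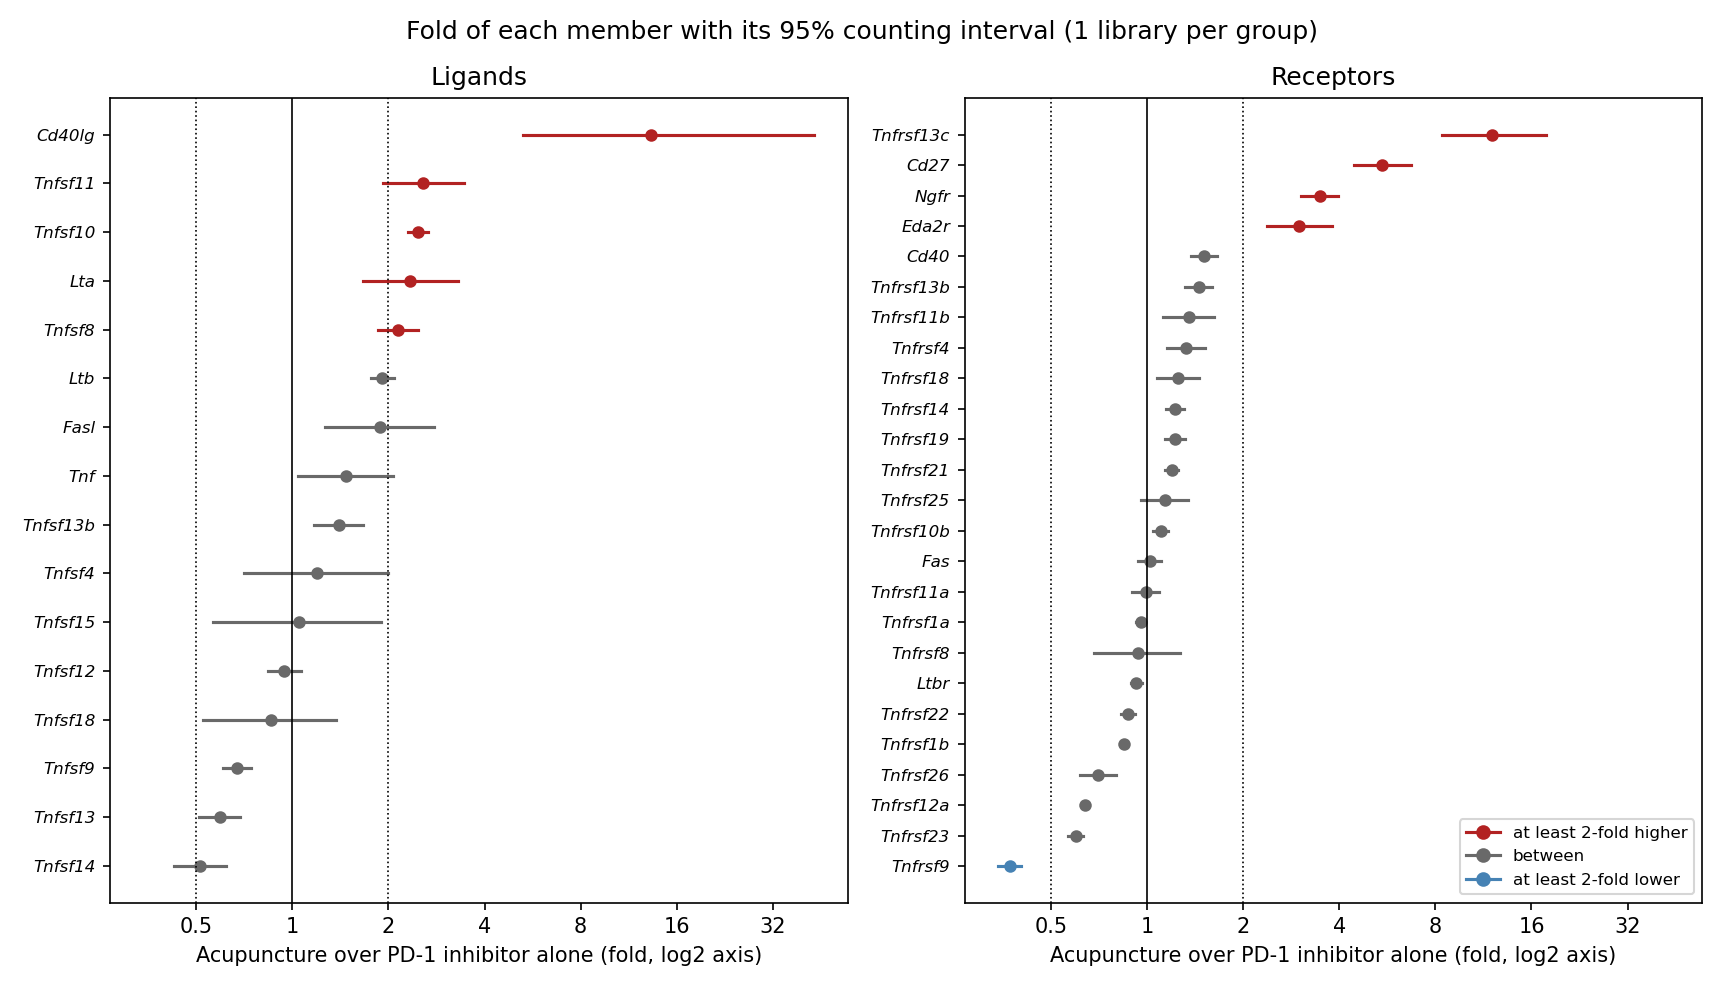
Fold of each of 16 ligand genes and 25 receptor genes, acupuncture over PD-1 inhibitor alone, on a log2 axis; points are folds, bars are 95% counting intervals, and dotted lines stand at 2-fold in either direction. Cd40lg (13.3-fold) and Tnfrsf13c (12.1-fold) lie far to the right of the others, and Tnfrsf9 (0.371) is the only gene of these left of the lower limit with its whole interval.

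Levels of different genes are compared per kilobase of exon. The most abundant receptor gene was Tnfrsf12a, the TWEAK receptor FN14 of epithelial and injured tissue, at 59.9 CPM per kb with acupuncture and 93.6 with the PD-1 inhibitor alone. Next came both TNF receptors, with Tnfrsf1a at 39.4 CPM per kb with acupuncture and 41.4 without, and Tnfrsf1b at 34.0 with and 40.3 without. The lymphotoxin beta receptor Ltbr followed at 26.3 CPM per kb with acupuncture and 28.5 without. None of these 4 abundant receptor genes passed the 2-fold limit. Among ligand genes the order differed between the libraries: Ltb led with acupuncture at 12.9 CPM per kb, whereas Tnfsf9, the ligand of 4-1BB, led with the PD-1 inhibitor alone at 10.0 CPM per kb. The receptor genes called higher had low levels under the PD-1 inhibitor alone, with Tnfrsf13c at 0.163, Eda2r at 0.191, Cd27 at 0.518 and Ngfr at 0.941 CPM per kb.

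**Figure D2:**
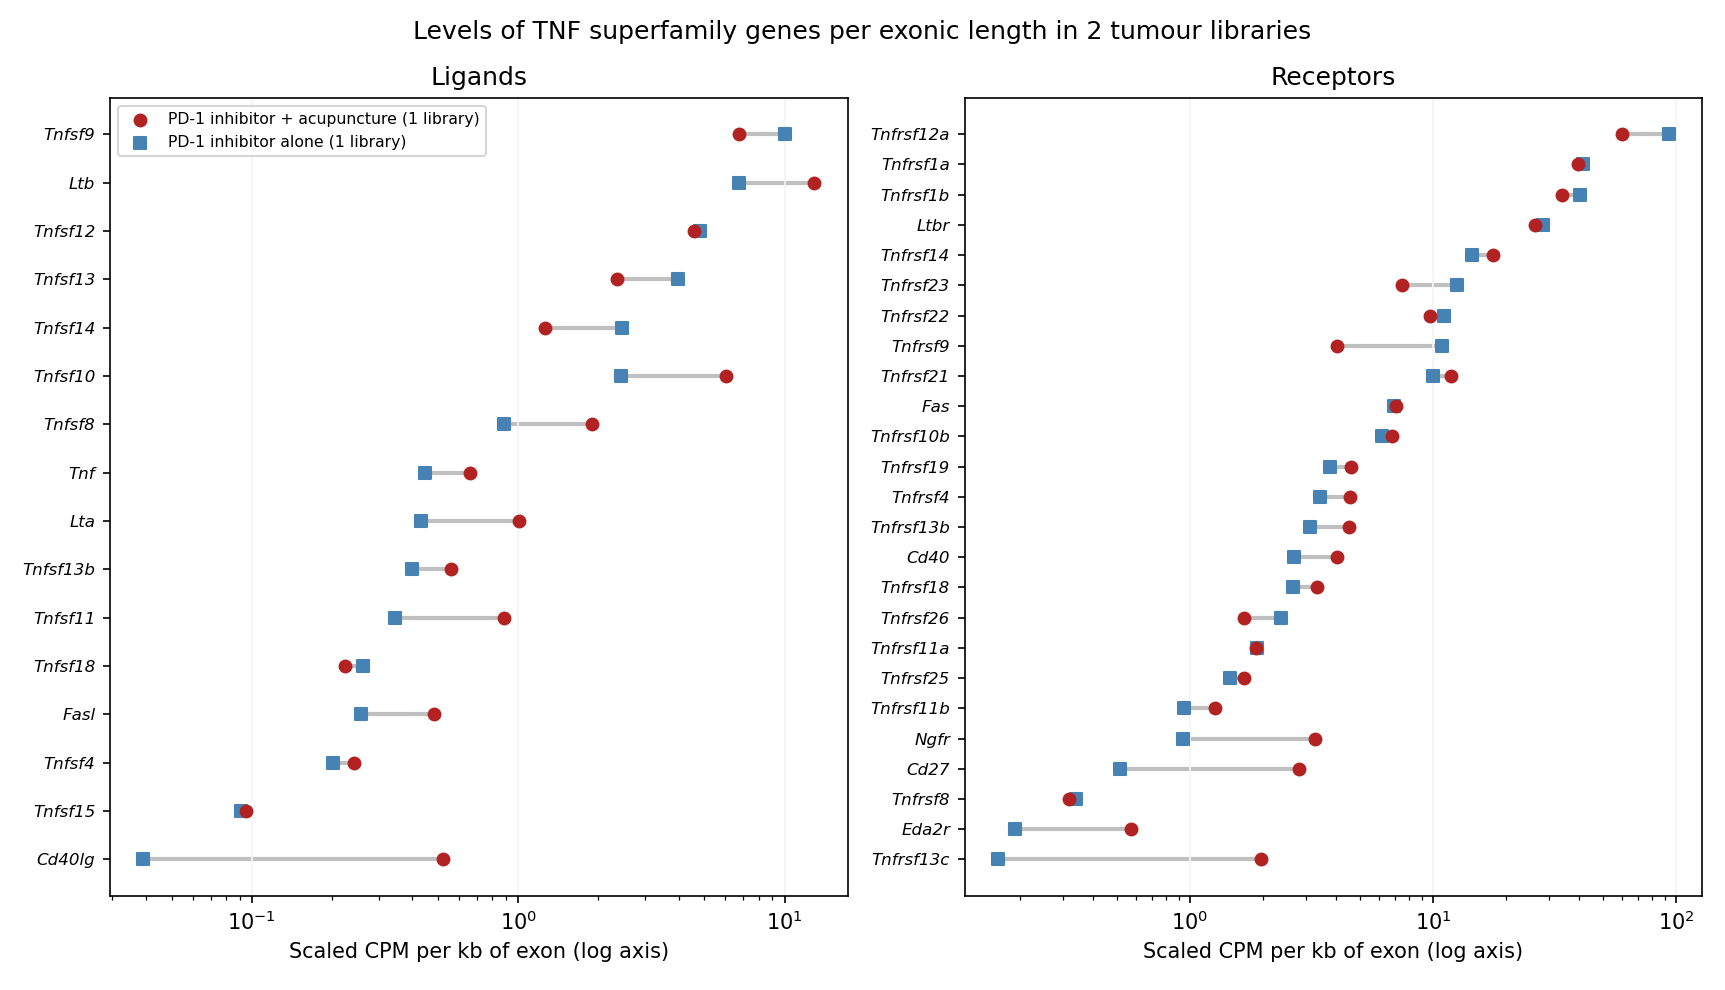
Scaled CPM per kb of exon (log axis) of ligand genes and receptor genes; circles are the acupuncture library and squares the library without acupuncture, joined by a grey line, in order of the level without acupuncture. Abundant receptor genes such as Tnfrsf1a (39.4 with acupuncture, 41.4 without) lie close together, and wide gaps are seen at low levels, as for Tnfrsf13c (1.96 with, 0.163 without), and higher up, as for Tnfrsf9 (4.04 with, 10.9 without).

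TNF itself, the founding inflammatory cytokine, and the lymphotoxins, which build and maintain lymphoid tissue, are encoded side by side. Lta, the secreted lymphotoxin alpha, had 88 counts (1.40 CPM) with acupuncture, against 61 counts (0.598 CPM) without, and was called higher at 2.34-fold (1.67 to 3.30). Ltb, which anchors lymphotoxin at the membrane of lymphocytes, had 1233 counts (19.6 CPM) with acupuncture and 1046 counts (10.2 CPM) without, or 1.91-fold higher (1.76 to 2.08), short of the limit, and past it under total-count scaling and when scaled to the epithelial markers. Tnf was low in both libraries, at 68 counts (1.08 CPM) with acupuncture and 75 counts (0.735 CPM) without, 1.47-fold higher (1.04 to 2.07), and past the limit when scaled to the epithelial markers. All 3 genes of the locus thus had folds above 1, and Lta alone was called.

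Tnfsf14 encodes LIGHT, which binds the lymphotoxin beta receptor and HVEM, and it went the other way from the lymphotoxins. It had 147 counts (2.34 CPM) with acupuncture and 463 counts (4.54 CPM) with the PD-1 inhibitor alone, 1.94-fold lower (1.61 to 2.35). Within a library the counts of Tnfsf14 over those of Ltb were 0.119 with acupuncture and 0.443 without, a ratio that does not depend on scaling and that was 3.71 times smaller with acupuncture (3.02 to 4.58). Tnfsf14 and Tnfsf9 flank Cd70 on the chromosome with no protein-coding gene between them, and both were lower in the acupuncture library, Tnfsf9 at 547 counts (8.69 CPM) with acupuncture and 1322 counts (13.0 CPM) without. The receptors of this group lay near 1. Tnfrsf1a, the death domain receptor of TNF on most cells, was at 0.953 times its level without acupuncture (0.924 to 0.983), and Tnfrsf1b, the TNF receptor of leukocytes and endothelium, at 0.844 times (0.822 to 0.867). Ltbr was at 0.924 times (0.888 to 0.961), and Tnfrsf14, which encodes HVEM, was 1.22-fold higher (1.15 to 1.31). Macrophages carry both TNF receptors, and their 7 markers summed to 1087 CPM with acupuncture and 1278 CPM without. Their part in the values of the TNF receptors was not tested.

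Genes of B cell survival and help held the highest folds of the family. Tnfrsf13c, the BAFF receptor that keeps mature B cells alive, had 253 counts (4.02 CPM) with acupuncture and 34 counts (0.333 CPM) with the PD-1 inhibitor alone, 12.1-fold higher (8.42 to 17.8). Cd40lg, the ligand by which helper T cells activate B cells and dendritic cells, had 41 counts (0.652 CPM) with acupuncture and 5 counts (0.0490 CPM) without, 13.3-fold higher (5.26 to 43.1). The interval of Cd40lg is wide because it rests on so few reads.

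Their partners differed less. Cd40, the receptor of B cells, dendritic cells and macrophages, had 867 counts (13.8 CPM) with acupuncture and 932 counts (9.13 CPM) without, 1.51-fold higher (1.37 to 1.66). Tnfrsf13b, the TACI receptor of BAFF and APRIL, had 804 counts (12.8 CPM) with acupuncture and 900 counts (8.82 CPM) without, 1.45-fold higher (1.32 to 1.60). BAFF, encoded by Tnfsf13b, had 241 counts (3.83 CPM) with acupuncture and 280 counts (2.74 CPM) without, 1.40-fold higher (1.17 to 1.67). The receptors of BAFF thus stood in another proportion in each library: counts of Tnfrsf13c over Tnfrsf13b were 0.315 with acupuncture and 0.0378 without, 8.33 times larger (5.72 to 12.4). In the other direction stood Tnfsf13, which encodes APRIL, with 243 counts (3.86 CPM) with acupuncture and 666 counts (6.52 CPM) without, 1.69-fold lower (1.46 to 1.96). Tnfsf13 shares 57.3% of its 50-base stretches with other annotated genes, nearly all with the read-through gene Tnfsfm13 that joins it to Tnfsf12, so how reads were divided among these genes is uncertain. Tnfsfm13 had 377 counts with acupuncture and 782 without, and the 3 genes together were at 0.779 times their level without acupuncture (0.723 to 0.839). The antisense RNA Tnfsf13os, which overlaps Tnfsf13 on the other strand, had 33 counts with acupuncture and 74 without (0.724 times, 0.465 to 1.10), and since the sources used here give no strand setting, its reads and those of Tnfsf13 cannot be told apart where they overlap.

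The B cell markers were higher in the same library, each of 8 of them, with a median log2 ratio of 5.23 and a range of 3.06 to 6.51. At a log2 ratio of 3.50, Tnfrsf13c lay near the lower end of that range, between Fcrla at 3.06 and the next marker Cd22 at 3.67. Cd40 at 0.59 and Tnfrsf13b at 0.53 lay below the range. Counts of Tnfrsf13c over the B cell receptor component Cd79a were 0.168 with acupuncture and 0.642 without, 3.81 times smaller with acupuncture (2.35 to 6.11). The part of B cell content in these values was not tested beyond this ratio.

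Genes of T cell co-stimulation differed in both directions. Cd27, a receptor of naive and memory T cells, had 412 counts (6.55 CPM) with acupuncture and 123 counts (1.20 CPM) with the PD-1 inhibitor alone, 5.43-fold higher (4.43 to 6.70). Tnfrsf9 encodes 4-1BB, a receptor of recently activated T cells and NK cells, and was the member called lower, with 692 counts (11.0 CPM) with acupuncture and 3025 counts (29.6 CPM) without, 2.69-fold lower (2.48 to 2.93). Scaled to the epithelial markers its log2 ratio was -0.87 and it was no longer called. Counts of Cd27 over Tnfrsf9 were 0.595 with acupuncture and 0.0407 without, 14.6 times larger (11.7 to 18.4). T cells can carry both receptors, and which cells the reads of either gene came from was not tested.

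The other receptors of this group lay between the limits. Tnfrsf4, which encodes OX40, had 392 counts (6.23 CPM) with acupuncture and 480 counts (4.70 CPM) without, 1.33-fold higher (1.16 to 1.52). Tnfrsf18, the GITR receptor of regulatory and activated T cells, had 319 counts (5.07 CPM) with acupuncture and 414 counts (4.06 CPM) without, 1.25-fold higher (1.08 to 1.45), and overlaps an antisense gene over 27.2% of its exons. The intervals of Tnfrsf25, which encodes the death receptor DR3 of T cells (1.14-fold, 0.960 to 1.35), and of Tnfrsf8, which encodes CD30 (0.933 times, 0.684 to 1.26), held 1, so no difference was detectable for either at this depth.

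All 8 T cell markers were higher with acupuncture, with log2 ratios of 1.94 to 2.75 and a median of 2.53. Cd27 at 2.42 lay within that range, Cd40lg at 3.21 lay above it, and Tnfrsf4, Tnfrsf18, Tnfrsf25 and Tnfrsf9 lay below it. Set against the T cell receptor component Cd3e within each library, the counts of Cd27 were 0.520 times those of Cd3e with acupuncture and 0.609 times without (ratio of ratios 0.853, 0.657 to 1.11). Cd40lg over Cd3e was 0.052 with acupuncture and 0.025 without. The interval of its ratio of ratios, 2.09 (0.811 to 6.86), held 1, so no difference from Cd3e was detectable on so few reads. Tnfrsf9 over Cd3e was 0.873 with acupuncture and 15.0 without, 17.2 times smaller (14.4 to 20.5). For Tnfrsf4 the same quotient was 4.81 times smaller with acupuncture (3.90 to 5.93), and for Tnfrsf18 it was 5.09 times smaller (4.10 to 6.34). Relative to Cd3e, Cd27 therefore did not differ beyond counting error, while 4-1BB, OX40 and GITR transcripts were scarcer relative to it with acupuncture. Cd3e itself was 6.37-fold higher with acupuncture (5.45 to 7.47). In scaled CPM Tnfrsf9 was lower, whereas Tnfrsf4 was 1.33-fold and Tnfrsf18 1.25-fold higher. Cells other than T cells can express Tnfrsf9, Tnfrsf4 and Tnfrsf18, and their part was not tested.

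**Figure D3:**
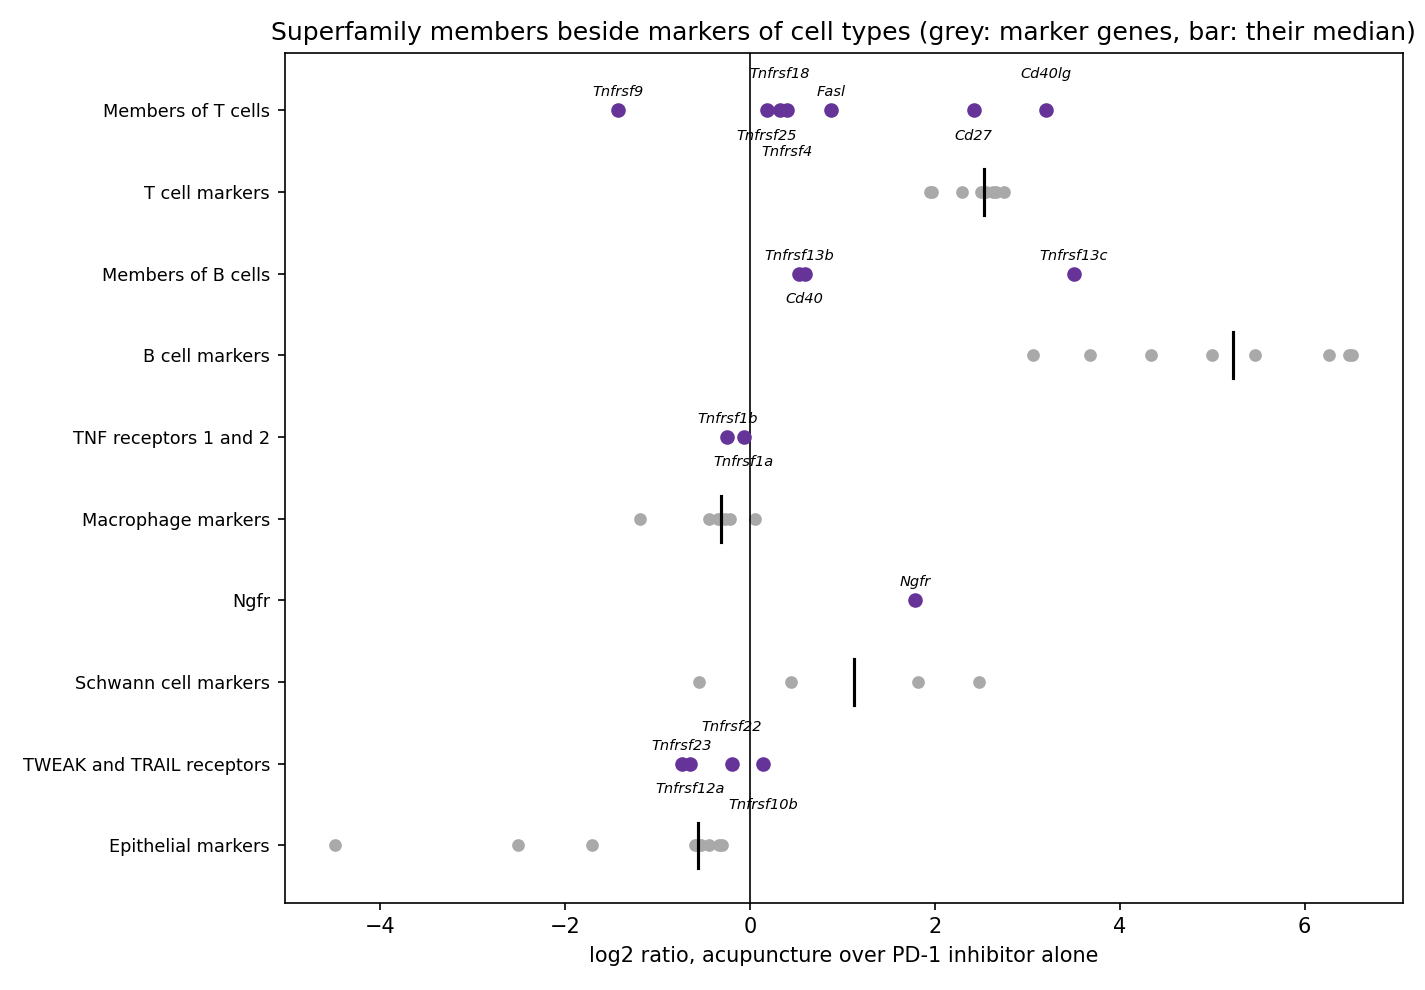
The log2 ratios, acupuncture over PD-1 inhibitor alone, of superfamily members (purple) beside those of cell type markers (grey, with a bar at the median). T cell markers lie between 1.94 and 2.75, where Cd27 (2.42) is found and Tnfrsf9 (-1.43) is not. Tnfrsf13c (3.50) lies within the range of the B cell markers but below their median of 5.23.

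Among the ligands of these receptors Tnfsf8 was called higher. Tnfsf8, the CD30 ligand of activated T cells and B cells, had 455 counts (7.23 CPM) with acupuncture and 345 counts (3.38 CPM) without, 2.14-fold higher (1.86 to 2.47), while its receptor Tnfrsf8 had 69 counts with acupuncture and 120 without. Tnfsf9 was 1.49-fold lower (1.35 to 1.65), the same direction as its receptor Tnfrsf9. Because the receptor differed more, counts of Tnfsf9 over Tnfrsf9 were 0.790 with acupuncture and 0.437 without, 1.81 times larger (1.59 to 2.06). Tnfsf9 overlaps an antisense gene over 14.9% of its exons. The OX40 ligand Tnfsf4 (28 counts with acupuncture, 38 without), the GITR ligand Tnfsf18 (29 with, 55 without) and the DR3 ligand Tnfsf15 (20 with, 31 without) had intervals that held 1, so no difference was detectable for them at this depth. That of Tnfsf15 was the widest of these 3, from 0.565 to 1.90 times.

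The death ligand TRAIL was higher and the death receptors lay near 1. Tnfsf10 encodes TRAIL, an interferon-responsive death ligand of NK cells, T cells and myeloid cells, and had 1994 counts (31.7 CPM) with acupuncture, against 1310 counts (12.8 CPM) with the PD-1 inhibitor alone, 2.47-fold higher (2.30 to 2.65). Fasl, the death ligand of cytotoxic lymphocytes, had 59 counts (0.938 CPM) with acupuncture and 51 counts (0.50 CPM) without, 1.88-fold higher (1.27 to 2.79), short of the limit, and past it under total-count scaling and when scaled to the epithelial markers. Relative to the T cell gene Cd3e, Fasl was 3.39 times scarcer with acupuncture (2.21 to 5.19). Cd3e does not stand for NK cells, which are cytotoxic lymphocytes too. The 3 NK cell markers tested had log2 ratios of 0.48 (Klrb1c), 0.67 (Ncr1) and 1.22 (Eomes). Fasl, at 0.88, lay above Klrb1c and Ncr1 and below Eomes. The part of T cells and of NK cells in the value of Fasl was not tested.

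The matching receptors were close to equal. Fas had 911 counts (14.5 CPM) with acupuncture and 1451 counts (14.2 CPM) without, 1.02-fold (0.937 to 1.11), and Tnfrsf10b, the only TRAIL death receptor of the mouse, had 2335 counts (37.1 CPM) with acupuncture and 3438 counts (33.7 CPM) without, 1.10-fold higher (1.05 to 1.16). Counts of Tnfsf10 over Tnfrsf10b were 0.854 with acupuncture and 0.381 without, 2.24 times larger (2.05 to 2.45). Tnfrsf21, the death receptor DR6, was 1.19-fold higher (1.14 to 1.25). The mouse decoy receptors for TRAIL, which lack a death domain, lay on the low side. Tnfrsf23 had 1869 counts (29.7 CPM) with acupuncture and 5072 counts (49.7 CPM) without, 1.67-fold lower (1.59 to 1.76), Tnfrsf22 was at 0.872 times its level (0.831 to 0.914) and their neighbour Tnfrsf26 at 0.701 times (0.615 to 0.798). Tnfrsf22 shares 27.4% and Tnfrsf23 19.3% of their 50-base stretches with other genes, chiefly each other, and summed they were at 0.731 times their level without acupuncture (0.705 to 0.757). Tnfsf10 over Tnfrsf23 was 1.07 with acupuncture and 0.258 without, 4.13 times larger (3.78 to 4.51). Epithelial markers had a median log2 ratio of -0.56, against -0.74 for Tnfrsf23, -0.20 for Tnfrsf22 and 0.14 for Tnfrsf10b, and the part of epithelial content was not tested.

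In the RANK system the ligand was higher. Tnfsf11 encodes RANKL, which drives osteoclasts, lymph node formation and mammary gland growth, and had 125 counts (1.99 CPM) with acupuncture and 79 counts (0.774 CPM) without, 2.57-fold higher (1.92 to 3.45). The signalling receptor RANK, encoded by Tnfrsf11a, had 705 counts (11.2 CPM) with acupuncture and 1157 counts (11.3 CPM) without, 0.989 times (0.899 to 1.09). The soluble decoy osteoprotegerin, encoded by Tnfrsf11b, had 226 counts (3.59 CPM) with acupuncture and 272 counts (2.66 CPM) without, 1.35-fold higher (1.13 to 1.61). Counts of Tnfsf11 over Tnfrsf11b were 0.553 with acupuncture and 0.290 without, 1.90 times larger (1.35 to 2.69). In the TWEAK system it was the receptor that differed. Tnfrsf12a had 7276 counts (116 CPM) with acupuncture and 18457 counts (181 CPM) without, 1.56-fold lower (1.52 to 1.61). Its ligand Tnfsf12 had 434 counts with acupuncture and 747 without, at 0.943 times its level (0.836 to 1.06), with 46.8% of its 50-base stretches shared with Tnfsfm13. The epithelial markers, at a median log2 ratio of -0.56, were lower in the same library as Tnfrsf12a at -0.64.

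Among receptors known from ectodermal and nerve tissue, Ngfr and Eda2r were called higher. Ngfr, the low-affinity neurotrophin receptor of Schwann cells, some stromal cells and follicular dendritic cells, had 708 counts (11.3 CPM) with acupuncture and 331 counts (3.24 CPM) with the PD-1 inhibitor alone, 3.47-fold higher (3.04 to 3.97). Eda2r, the receptor of ectodysplasin A2 that in mice is active in skeletal muscle, had 212 counts (3.37 CPM) with acupuncture and 115 counts (1.13 CPM) without, 2.99-fold higher (2.37 to 3.79). Tnfrsf19, the TROY receptor of epithelial stem cells and the nervous system, was 1.22-fold higher (1.14 to 1.31). Of 4 Schwann cell markers 2 were called higher, among them S100b (58 counts with acupuncture, 25 without). Sox10 had 10 counts with acupuncture and 25 without, and the list summed to 6.85 CPM with acupuncture and 3.80 CPM without. The acupuncture library was also the higher one for the lymphoid stroma and skeletal muscle markers, as it was for Ngfr and Eda2r. Their part in both values was not tested.

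None of the listed signalling genes beneath the receptors was called higher or lower, against 14.1% of all genes tested called in either direction. The lists are short, and their difference from that share was not tested. Of 11 TRAF and death domain adaptors none passed the 2-fold limit in either direction, with log2 ratios from -0.61 for Tradd, the adaptor of TNF receptor 1, to 0.34 for Traf5 and a median of 0.09. Of 15 NF-kB subunits, kinases and inhibitors none passed it either, with a median of -0.07 and a highest value of 0.53 for the lymphoid subunit Rel. Both kinds of NF-kB were at similar levels, with the canonical Nfkb1 at 0.863 times (0.843 to 0.884) and the lymphotoxin- and BAFF-responsive Nfkb2 at 0.911 times (0.889 to 0.932) their level without acupuncture. Of 7 caspase and necroptosis genes none passed, and the necroptosis effector Mlkl stood at 1.48-fold (1.43 to 1.55). Casp8, the caspase of the death receptors, was 1.16-fold higher (1.13 to 1.20) and its inhibitor Cflar stood at 0.891 times (0.862 to 0.921). The sheddases Adam10 and Adam17 were at 0.832 times (0.814 to 0.851) and 0.908 times (0.879 to 0.937). Superfamily genes outside the rule lay near 1, with the receptor Relt at 0.933 times (0.853 to 1.02) and ectodysplasin, Eda, at 1.38-fold (1.05 to 1.81), while its receptor Edar had 2 counts with acupuncture and 7 without.

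Genes that TNF induces were called in both directions, and genes that depend on lymphotoxin were all higher. Of 12 TNF-induced genes 4 were called higher and 3 lower, and the median log2 ratio was -0.20. Il6, an inflammatory cytokine, was 2.96-fold higher (2.57 to 3.41), the endothelial adhesion receptor Sele 2.87-fold higher (2.23 to 3.71), Tnfaip6, a matrix-binding protein, 2.27-fold higher (2.11 to 2.44) and Icam1 2.18-fold higher (2.07 to 2.31). The 3 lower genes attract or feed neutrophils and macrophages: Cxcl2 was 8.35-fold lower (6.80 to 10.3), Csf2 4.88-fold lower (3.24 to 7.65) and Csf3 2.66-fold lower (2.51 to 2.83). The neutrophil markers, 19.8 CPM with acupuncture and 207 CPM without, were lower in the same library as these 3 genes, and their part was not tested. Of 5 lymphoid genes that depend on the lymphotoxin beta receptor in lymphoid tissue (Cxcl13, Ccl19, Ccl21a, Madcam1 and Glycam1) all were higher. Their folds ran from 4.68-fold for the vascular addressin Madcam1 (2.96 to 7.62) upward. Of the lymphotoxin genes, Lta was 2.34-fold and Ltb 1.91-fold higher, and Tnfsf14, another ligand gene of this receptor, was 1.94-fold lower. Ltbr was at 0.924 times and Nfkb2 at 0.911 times their levels without acupuncture. The 5 lymphoid genes are also markers of lymphoid stroma and high endothelial venules. A difference in signalling and a difference in such tissue therefore cannot be told apart. Over all pathway genes 9 of 54 (16.7%) were higher, 5 of them the lymphotoxin-dependent genes, and 3 (5.56%) were lower, against 9.21% and 4.9% of all genes tested.

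**Figure D4:**
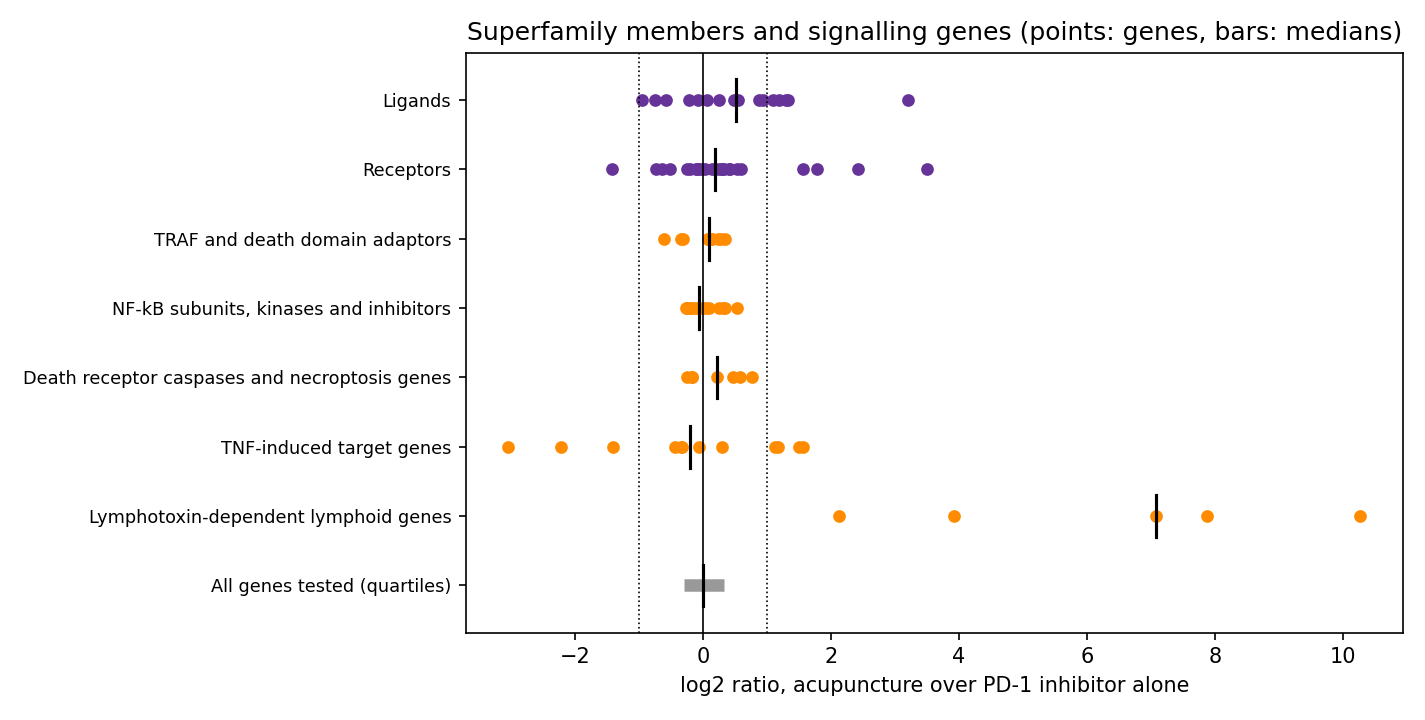
The log2 ratios, acupuncture over PD-1 inhibitor alone, of ligands and receptors (purple) and of signalling and target genes (orange), with medians as bars, dotted lines at 2-fold and the quartiles of all genes tested in grey. Adaptors and NF-kB genes lie inside the dotted lines, TNF-induced genes spread to both sides, and all 5 lymphotoxin-dependent genes lie to the right.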

How the data were processed

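The authors deposited raw whole-number counts per gene symbol for 2 libraries of mouse breast tumour, 1 per group; per the labels' protocols, RNA came from a column kit and libraries from a SMARTer messenger RNA kit. The submitters' processing notes name the builds GRCm39 and mm39, and aligner, counter and strand setting are not stated. Library sizes were scaled with TMM factors (0.966 for the PD-1 inhibitor alone, 1.04 with acupuncture; edgeR 4.0.16, R 4.3.3) from genes with at least 20 counts over both libraries. Folds divide the acupuncture value by that of the PD-1 inhibitor alone, with exact Clopper-Pearson 95% intervals of the binomial split of counts. Ratios of ratios within libraries carry exact conditional odds-ratio intervals (scipy 1.17.1). Log2 ratios use a prior count of 2. Intervals cover counting error only, and may be too narrow even for that, since PCR reads without molecular identifiers are not independent. No test between groups was possible and no p-value was computed. Exon lengths, overlaps and shared 50-base stretches come from GENCODE M21 and promoters from RefSeq, both of GRCm38, which is another build than that of the counts. Every member was to be named or counted. Members, gene lists and alternatives were chosen with earlier results of these data known. The calculation was tested on simulated Poisson counts, which hold counting error alone, so that test does not cover variation between animals. A few genes and 1 promoter pattern are not reported here. Scaling by DESeq2 1.42.0 size factors, totals, upper quartiles and the epithelial list was tried, as were other minimums, fold limits and prior counts.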

Additional observations from a re-analysis of the deposited data

How the results depend on the processing

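No paired analysis was possible because each group has 1 library. Under DESeq2 size factors and upper quartile factors the members called were the same 10 as in the report, and prior counts of 0.5 and 5 changed no call. Scaling by total counts moved the median log2 ratio of all genes to 0.10 and added Fasl and Ltb to the members called higher, 11 in all, with 4 members turning from below to above 0 and 71.6% of all called genes higher in place of 65.3%. Setting the epithelial list to 0 moved the median of all genes to 0.56 and that share to 91.5%: 15 members were then higher, 0 lower, the member median was 0.80, 3714 and 345 of all genes were higher and lower, and 14 pathway genes were higher. Tnf, Fasl, Ltb, Cd40, Tnfrsf13b and Tnfsf13b joined the higher members there, Tnfrsf9, at a log2 ratio of -0.87, was no longer called, and 10 members turned from below to above 0. A minimum of 100 counts left 1055 higher and 500 lower genes, and 8 higher members, since Cd40lg has fewer counts. A fold limit of 1.5 gave 5 lower members and 2679 higher and 1933 lower genes, and a limit of 4 gave 3 higher and 0 lower members, 678 higher and 262 lower genes and 5 higher pathway genes. In 2 choices made after the data were seen, leaving out Tnfsf12, Tnfsf13, Tnfsf13os, Tnfrsf22, Tnfrsf23 and Tnfrsf26 gave 9 higher and 1 lower member with a median of 0.31, and leaving out all 18 members that overlap another annotated gene or share any 50-base stretch with one, among them Tnfrsf13c, Cd27, Tnfsf10 and Ngfr, gave 5 higher and 1 lower with a median of 0.35. Depth limits Cd40lg, Tnfsf15, Tnfsf4, Tnfsf18, Tnfsf13os, Fasl and Tnf most, whose counts per library ran from 5 (Cd40lg) to 75 (Tnf).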
